A study of Mus musculus with 2148 samples.

Results

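The 10 genes described here encode proteases that cut the proteins from which thymic epithelial cells make the peptides shown to developing T cells. They were chosen by name, and all 10 were found among the 48437 genes of the count table: Psmb11, Psmb5, Psmb6, Psmb7, Psmb8, Psmb9, Psmb10, Prss16, Ctsl and Ctss. Each library was the total RNA of 1 sorted thymic epithelial cell of C57BL/6 mice, sequenced with random and oligo-dT primers (RamDA-seq). The 1980 cells had 203010 to 1823784 counted reads each, with a median of 692880.

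The cells fell into 8 groups. Cortical cells (cTEC) were sorted as CD45-, EpCAM+ and Ly51+, and medullary cells as Ly51- with high (mTEChi) or low (mTEClo) MHC class II. Adult wild-type (WT) mice gave cTEC from 1 pool of 6-week-old males (77 cells, 3.89% of all), mTEChi from 4 pools (620 cells, 31.3%; males of 4, 5 and 6 weeks and females of 4 weeks for pools 1 to 4) and mTEClo from 3 pools of males (18.03% of all cells; 8, 5 and 4 weeks for pools 1, 2 and 3). Aire-KO males of 5 weeks, which lack a functional Aire gene on the same C57BL/6 background, gave 1 pool of mTEChi (17.1% of all cells) and 1 pool of mTEClo (7.78%). Newborn WT mice of 1 day, of unknown sex, gave cTEC (7.02% of all cells), mTEChi (8.64%) and mTEClo (6.26%), with all 3 sorts on the same 5 plates. Mice within a pool were not numbered, so a pool is the replicate here. Adult and newborn cells, Aire-KO and WT cells, and the sorts of the adult mice were on different plates. Age, genotype and, in adults, the sort therefore cannot be told apart from the plate.

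The sum of 6 cTEC markers (Foxn1, Dll4, Cxcl12, Ccl25, Ly75 and Enpep) followed the cTEC label. It was 4254 reads per 1000000 counted (CPM) in adult cTEC and 4354 in newborn cTEC. Every pool of the adult WT mTEChi and mTEClo had 183.5 to 913.8, and newborn mTEClo stood between these and cTEC at 2110 CPM. Enpep encodes Ly51, on which the cells were sorted, so its own agreement was fixed by the sort. Foxn1 and Ccl25 also varied among medullary sorts, being higher in adult WT mTEChi than in mTEClo (log2 differences of 1.87 and 1.77). A sum of 8 mTEC markers (Aire, Cd80, Fezf2, Krt5, Krt14, Tnfrsf11a, Cldn3 and Cldn4) was 2671 to 3657 CPM in the adult WT mTEChi pools. It was 826.7 CPM in adult cTEC, so that sort was not free of their reads. Aire, Fezf2 and Cd80 were lower there than in mTEChi (log2 differences of -8.42, -4.15 and -4.15). Krt5 also varied among medullary sorts, being lower in adult WT mTEChi than in mTEClo (-3.36). How much of the sum in cTEC came from medullary cells was not tested. The same sum was 876.8 to 2684 CPM in the adult WT mTEClo pools and 831.9 CPM in newborn mTEClo. This sum thus set adult cTEC apart from mTEChi and little from the lowest mTEClo values. Aire, the target of the knockout, had 1467 ± 404.7 CPM (SD, n = 4 pools) in adult WT mTEChi and 26.1 CPM in Aire-KO mTEChi. Markers of other cell types were also detected in the sorts. Cells with at least 4 of 10 tuft cell markers made up 8.76, 87.8 and 59.1% of the adult WT mTEClo pools 1, 2 and 3. Thymocyte markers reached a sum of 413.3 CPM in the adult cTEC pool and 129.5 CPM in the newborn one. A list of 10 markers of haematopoietic antigen-presenting cells summed to 340.2 to 568.9 CPM in the adult WT mTEChi pools, against 34.7 CPM in adult cTEC.

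The proteasome degrades cytosolic proteins with the catalytic subunits β1, β2 and β5. In most cells these come from Psmb6, Psmb7 and Psmb5. In the immunoproteasome, which interferon-γ induces, they are replaced by the products of Psmb9 (β1i), Psmb10 (β2i) and Psmb8 (β5i). The thymoproteasome of cTEC carries β1i and β2i together with β5t, the product of Psmb11, and is known for the positive selection of CD8+ T cells. Peptides for MHC class II come from endosomes and lysosomes, where Prss16 (thymus-specific serine protease) and cathepsin L (Ctsl) serve in cTEC for the selection of CD4+ T cells. Cathepsin S (Ctss) breaks down the invariant chain in many other antigen-presenting cells.

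Psmb11 lies next to Psmb5 on chromosome 14 (GRCm38 chr14:54621433-54629556 and chr14:54614119-54618022, on opposite strands). Psmb8 (chr17:34197721-34201454) and Psmb9 (chr17:34181987-34187764) lie together in the MHC region. Ctss is at chr3:95526786-95556403. Of the 10 genes, 8 had a promoter entry in the RefSeq table for GRCm38.p6, which runs from 250 bases before to 50 bases after the start of transcription. Both strands were searched for 4 short motifs, and stretches with a match in Psmb11, Psmb8 and Ctss are shown because the first differed in direction from the other 2 between newborn cTEC and mTEChi. Capitals mark the match and the first 3 are 30 bases long, in the order chr14:54625060-54625089, chr14:54625236-54625265 and chr17:34198088-34198117, all on the + strand.
Psmb11 distal: gctgacaggtgGCGTCttcagagtgtagga
Psmb11 proximal: agcttctccacaGCGTCctcctcctcctcc
Psmb8: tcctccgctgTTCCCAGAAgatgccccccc
The 250 bases before the Ctss start, chr3:95526536-95526785 on the + strand, read as follows.
Ctss: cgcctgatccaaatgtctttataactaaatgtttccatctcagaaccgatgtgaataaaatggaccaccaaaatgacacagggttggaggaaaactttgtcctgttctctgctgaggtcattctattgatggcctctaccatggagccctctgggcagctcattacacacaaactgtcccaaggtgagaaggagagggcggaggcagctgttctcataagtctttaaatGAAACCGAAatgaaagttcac

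The Psmb11 matches are the complement of GACGC, the core letters of the Foxn1 motif, and sit at bases -239 to -235 and -62 to -58, counted from the RefSeq start. GACGC was in 27.2% of 32851 mouse promoters of the same length, so its presence sets Psmb11 apart little, and Psmb8 held it too at -193 to -189, outside the stretch shown. The Psmb8 match at -97 to -89 has the letters TTCNNNGAA of a STAT site, found in 8.30% of promoters. The Ctss match at -21 to -13 has the letters GAAANNGAA of an interferon-stimulated response element, found in 8.56% of promoters. The NF-kB letters GGGACTTTC, in 0.353% of promoters, were in none of the 8 windows. These are matches of letters, and binding was not measured.

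Psmb11 (β5t) was the most variable of the 10 genes, with a 140-fold range between the highest and lowest group means of CPM. The adult cTEC pool had 732.4 CPM. The 5 newborn cTEC plates had 834.9, 837.8, 1217, 1016 and 844.3 CPM. In adult WT mTEChi the 4 pools had 8.30, 2.503, 4.47 and 10.8 CPM, and the 3 adult WT mTEClo pools had 14.1, 0.667 and 5.52 CPM. Both cTEC groups were far above every adult medullary pool, and the pools of the 2 adult WT medullary sorts overlapped. The newborn mTEClo plates had 164.4, 441.97, 317.03, 253.9 and 180.1 CPM, above all the newborn mTEChi plates, which lay between 9.89 and 35.8 CPM. The Aire-KO pools had 71.6 CPM in mTEClo and 10.1 CPM in mTEChi. These are sums over cells, in which more cells with the transcript and more transcript per cell cannot be told apart. The cell values are given further on.

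**Figure D1:**
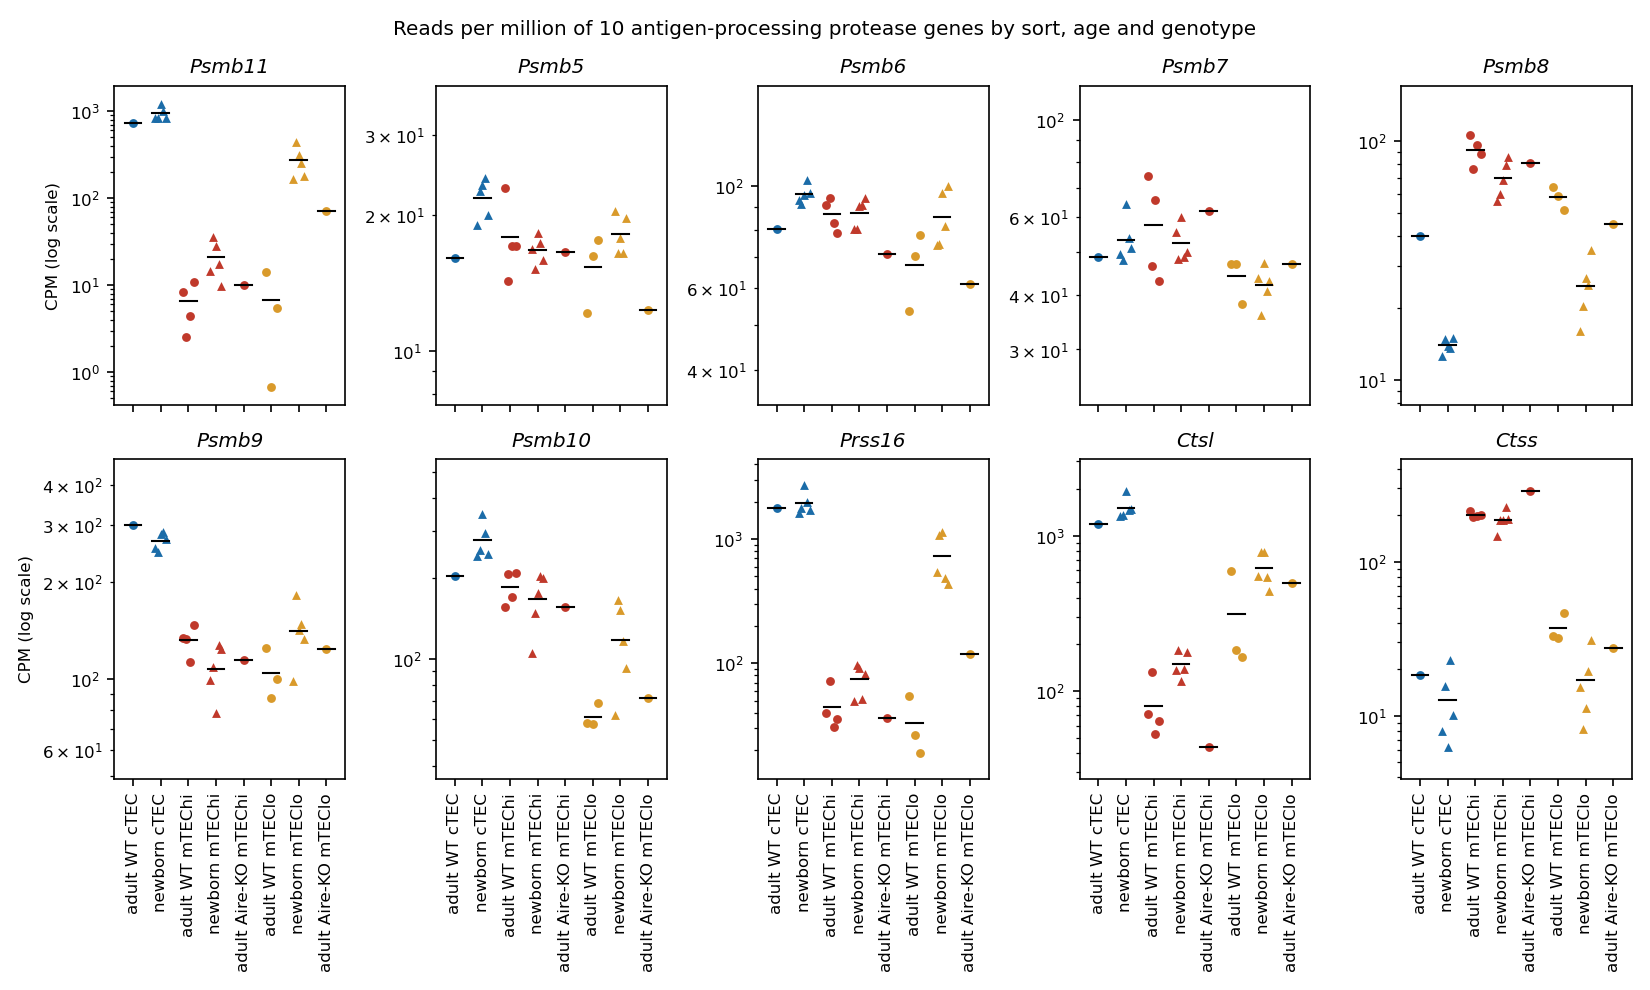
Levels of the 10 genes (CPM, log axis) in the 8 groups. Circles are adult pools and triangles are newborn plates, and the black line is the group mean. Psmb11, Prss16 and Ctsl were highest in cTEC, Ctss and Psmb8 in mTEChi, and Psmb5, Psmb6 and Psmb7 differed by at most 1.73-fold between the highest and lowest group means.

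Prss16 had the same order of groups at the top. It stood at 1766 CPM in adult cTEC, between 1629 and 2735 CPM on the newborn cTEC plates, and between 431.1 and 1143 CPM on the newborn mTEClo plates. The adult WT mTEChi pools had 40.0, 71.5, 31 and 35.8 CPM and the adult WT mTEClo pools 54.9, 26.3 and 18.9 CPM. These 2 adult medullary groups overlapped, as they did for Psmb11. Aire-KO mTEClo, at 119.8 CPM, was above all 3 WT mTEClo pools, and Aire-KO mTEChi, at 36.1 CPM, was within the WT range.

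Ctsl differed from Psmb11 and Prss16 in the adult mTEClo. Its level was 1185 CPM in adult cTEC and 1337 to 1932 CPM on the newborn cTEC plates. The adult WT mTEClo pools had 590.3, 185.2 and 164.9 CPM, all above the 4 mTEChi pools at 71.6, 132.3, 53.3 and 64.2 CPM. Aire-KO mTEClo had 496.4 CPM and Aire-KO mTEChi 43.9 CPM, so the Aire-KO pools kept the order of the WT sorts. On the newborn plates Ctsl was at 442.6 to 784.7 CPM in mTEClo and 115.8 to 182.6 CPM in mTEChi. The highest adult WT mTEClo pool was the one with the fewest tuft-marker cells.

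Ctss had the opposite pattern. The adult WT mTEChi pools had 213.6, 195.9, 196.9 and 201.1 CPM, Aire-KO mTEChi had 288.04 CPM and the newborn mTEChi plates 146.4 to 225.5 CPM. It was at 32.7, 32.2 and 46.7 CPM in the adult WT mTEClo pools and 27.4 CPM in Aire-KO mTEClo. The lowest levels were in newborn mTEClo (8.20 to 30.8 CPM over the plates), adult cTEC (18.5 CPM) and newborn cTEC (6.27 to 23.2 CPM), and these 3 overlapped. No mTEChi pool or plate overlapped with any cTEC or mTEClo pool or plate.

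The inducible proteasome genes did not share 1 pattern. Psmb8 (β5i) was highest in adult WT mTEChi at 105.97, 76.6, 96.5 and 87.8 CPM, followed by Aire-KO mTEChi at 80.6 CPM and the newborn mTEChi plates at 56.2 to 85.8 CPM. Its level was 64.04, 58.99 and 51.4 CPM in adult WT mTEClo, 40.0 CPM in adult cTEC, and 12.6 to 15.01 CPM on the newborn cTEC plates. Psmb9 (β1i) was highest in cTEC, at 299.99 CPM in adults and 246.96 to 286.2 CPM on the newborn plates, against 112.7 to 147.1 CPM in the adult WT mTEChi pools. Psmb10 (β2i) was high in both cTEC and mTEChi: 204.2 CPM in adult cTEC, 241.5 to 347.5 CPM on the newborn cTEC plates, and 155.9, 207.7, 170.1 and 209.4 CPM in the adult WT mTEChi pools. It was lower in adult WT mTEClo, at 57.6, 57.4 and 68.3 CPM. On the newborn mTEClo plates Psmb8 was at 16.1 to 34.9 CPM, below every adult mTEClo pool, whereas Psmb9 (98.2 to 182.6 CPM) and Psmb10 (61.7 to 166.4 CPM) were not.

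The constitutive genes changed least. The ratio of the highest to the lowest group mean was 1.73 for Psmb5, 1.56 for Psmb6 and 1.51 for Psmb7. None of the 3 met the criteria below in any comparison. Reads were counted without regard to strand, and 5.79% of the exon bases of Psmb9 overlap Tap1, 11.8% of Psmb7 overlap Nek6, 14.7% of Psmb8 overlap an antisense gene (Gm20496) and 26.9% of Ctsl overlap another (Gm47123). Reads in those stretches cannot be assigned to 1 gene by strand. Tap1 and Nek6 have counts of their own, while the antisense genes Gm20496 and Gm47123 are not in the count table. Same-strand genes that are also not in it overlap 12.1% of Psmb5 (Mir686) and 6.09% of Ctsl (Gm49230).

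To compare genes that fill the same catalytic position, CPM were divided by exon length, and each gene was given as a share of its position. The length was that of all annotated exons of a gene together: 4791 bases for Psmb11, 899 for Psmb5, 3381 for Psmb8, 3421 for Psmb7 and 1705 for Psmb10. Which of these exons the cells used was not tested, and the size of a share depends on it. At β5, Psmb11 held 83.8% of the length-corrected reads of adult cTEC, with 9.76% from Psmb5 and 6.48% from Psmb8. On the newborn cTEC plates Psmb11 held 85.5 to 89.4% and Psmb8 1.44 to 2.19%. In adult WT mTEChi the Psmb11 share was 2.75 ± 1.51% and that of Psmb8 56.4 ± 2.53% (SD, n = 4 pools). The newborn mTEClo plates were nearer to cTEC than to adult mTEClo, with 53.8 to 79.1% from Psmb11 against 0.390 to 8.33% in the adult WT mTEClo pools. By these lengths the Aire-KO mTEClo pool divided the position about evenly, with 35.7% from Psmb11, 32.7% from Psmb5 and 31.6% from Psmb8.

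**Figure D2:**
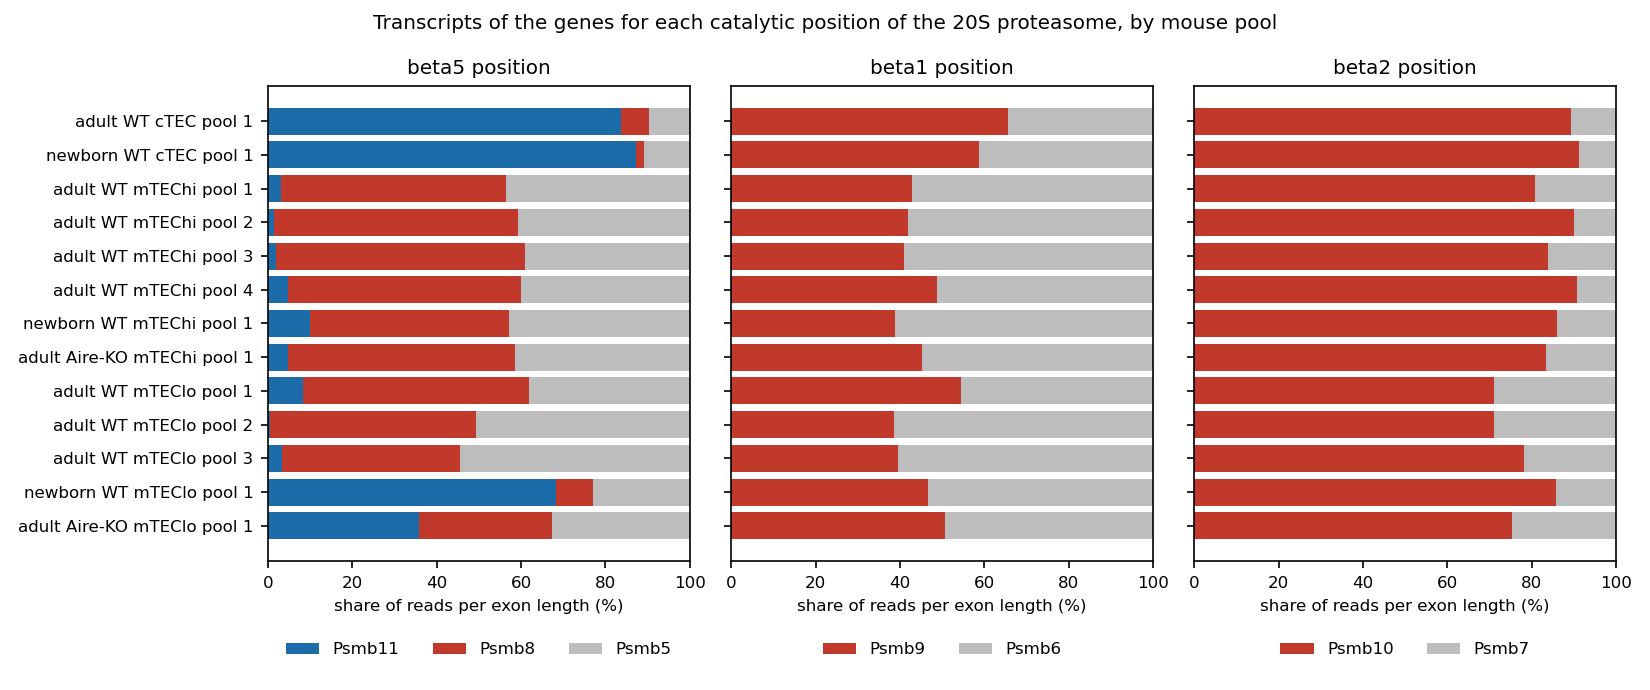
Share (%) of the length-corrected reads at each catalytic position that came from each gene, with 1 bar per mouse pool (13 pools). Psmb11 holds most of β5 in both cTEC pools and in newborn mTEClo, while Psmb10 holds most of β2 in every pool.

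At β1 the share of Psmb9 was 65.5% in adult cTEC and 58.1 to 60.1% on the newborn cTEC plates, above the 40.9 to 48.8% of the adult WT mTEChi pools. At β2 Psmb10 held 89.3% in adult cTEC, 86.3 ± 4.83% in adult WT mTEChi (SD, n = 4 pools) and 73.5 ± 4.16% in adult WT mTEClo (SD, n = 3 pools). The β2 share thus moved little between cTEC and mTEChi, where the β5 share was almost entirely exchanged. The β1 and β5 shares of the inducible genes went in opposite directions between these sorts.

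Tests were made on the summed counts of pools with edgeR's quasi-likelihood test, and a gene was called when its Benjamini-Hochberg adjusted p was under 0.05 and its change at least 2-fold. Between adult cTEC and adult WT mTEChi, 5 of the 10 genes were called: 4 were higher in cTEC, where 1.7% of all 40148 genes were, and 1 was lower, as were 1.15% of all genes. Psmb11 was higher by 7.05 ± 1.11 on the log2 scale (SE, adjusted p = 0.0166), Prss16 by 5.58 ± 0.55 (adjusted p = 0.00508), Ctsl by 4.15 ± 0.65 (adjusted p = 0.0168) and Psmb9 by 1.46 ± 0.28 (adjusted p = 0.0323). Ctss was lower, with a log2 difference of -3.18 ± 0.34 (adjusted p = 0.00523). Prss16 and Ctss were called whichever mTEChi pool was left out. The edgeR call of Psmb9 was lost without any 1 of the 4 pools (adjusted p 0.0519 to 0.0877), that of Psmb11 without pool 1 or pool 3 (adjusted p = 0.0514 and 0.0529) and that of Ctsl without pool 4 (adjusted p = 0.053). Psmb8 had a log2 difference of -0.93 ± 0.32 and was not called by edgeR (adjusted p = 0.166), while DESeq2 called it (-1.02, adjusted p = 0.00297).

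Of the 10 antigen-presenting cell markers, 2 were called higher in adult mTEChi than in cTEC, as Ctss was, and none lower. The called markers were Adgre1 and Fcer1g, the latter with a log2 difference of -5.27 for cTEC against mTEChi. Adgre1 and Ms4a1, of which Ms4a1 was not called, were at 0 CPM in adult cTEC. Lyz2 had 228.6 CPM in adult WT mTEChi and 17.1 CPM in cTEC. With the 73.5% of adult WT mTEChi cells and 29.9% of cTEC left out that had at least 5 reads of at least 3 of these or the thymocyte markers, the edgeR log2 difference of Ctss was -2.88 ± 0.51 (adjusted p = 0.0411). Prss16 and Ctsl were then also called, and Psmb11 (adjusted p = 0.0584) and Psmb9 (adjusted p = 0.0857) were not. The sort was for CD45- cells, and most of the mTEChi cells left out had fewer than 5 reads of Ptprc, which encodes CD45. The paper describes mTEC as cells that express genes of many peripheral organs. Whether the cells left out were haematopoietic was not tested. The filter also took 6 of the 12 cells of mTEChi pool 2.

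The newborn sorts shared plates, so they were compared over 5 plates with the plate as a block. These p-values measure the spread between plates of 1 pool, which is technical. Newborn cTEC against mTEChi gave 6 calls by edgeR. Psmb11 was higher by 5.69 ± 0.26 on the log2 scale (SE, adjusted p = 1.71e-06), Prss16 by 4.803 ± 0.248 (adjusted p = 1.71e-06), Ctsl by 3.37 ± 0.20 (adjusted p = 2.2e-06) and Psmb9 by 1.38 ± 0.16 (adjusted p = 6.57e-05). Psmb8 (log2 difference -2.26 ± 0.14, adjusted p = 2.35e-06) and Ctss (-3.94 ± 0.34, adjusted p = 1.2e-05) were lower in cTEC. Of all 23349 genes, 13.3% were called higher and 23.8% lower, so calls were frequent here, and the sizes of the differences say more than the number of calls.

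**Figure D3:**
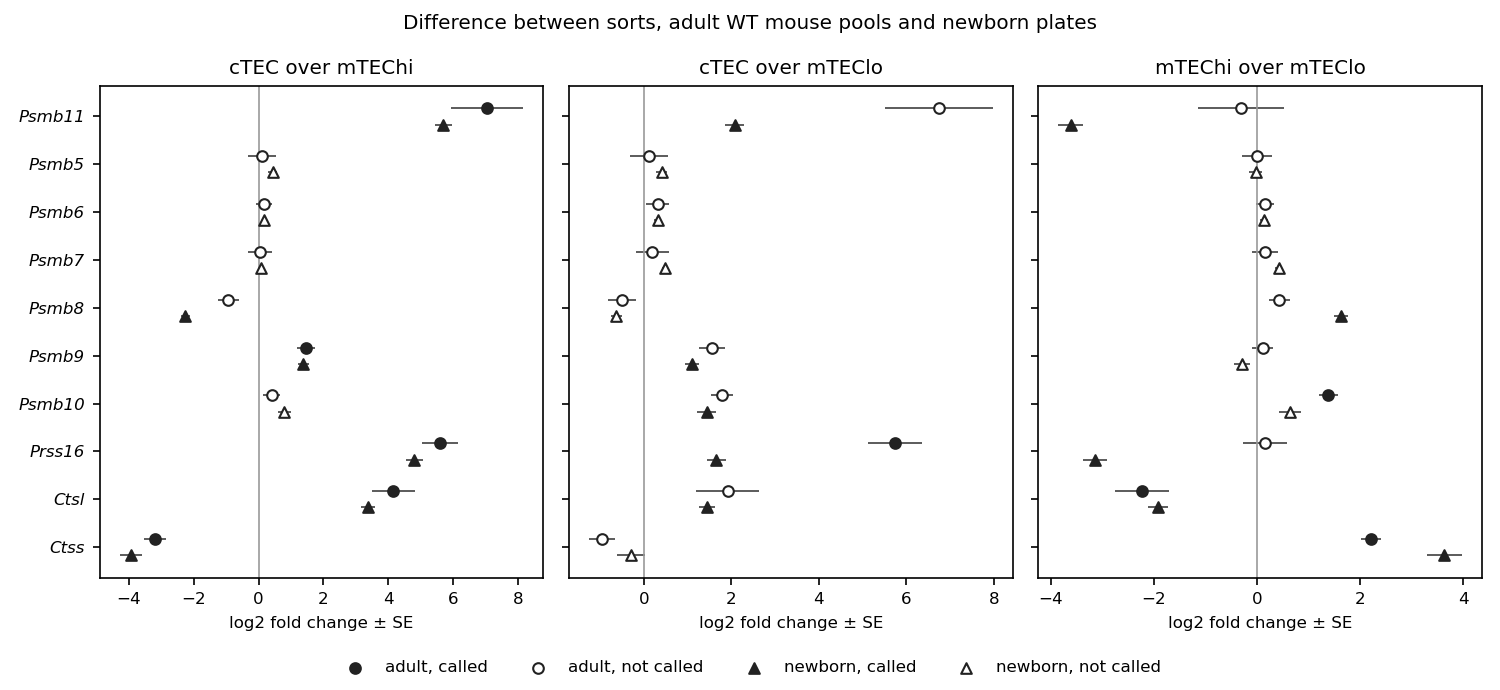
Log2 differences with SE between sorts for the 10 genes, in adults (edgeR on pools) and newborns (edgeR on plates); filled points were called. Psmb11, Prss16, Ctsl and Psmb9 were higher and Ctss lower in cTEC than in mTEChi at both ages.

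Adult cTEC and adult WT mTEClo were less clearly separated by the test. By edgeR only Prss16 was called, higher in cTEC by 5.74 ± 0.62 on the log2 scale (SE, adjusted p = 0.0308), where 0.0423% of all genes were called higher and 0.0149% lower. Psmb11 had a log2 difference of 6.74 ± 1.23 (adjusted p = 0.111), Psmb10 of 1.79 ± 0.25 (adjusted p = 0.0559), Psmb9 of 1.56 ± 0.29 (adjusted p = 0.120) and Ctsl of 1.92 ± 0.72 (adjusted p = 0.408). The outcome depended on the mTEClo pools. Without pool 1, which had the fewest tuft-marker cells, 5 genes were called by edgeR: Psmb11 (7.98, adjusted p = 0.0245), Psmb9 (1.78, adjusted p = 0.0148), Psmb10 (1.80, adjusted p = 0.0209), Ctsl (2.86, adjusted p = 0.0319) and Prss16. Without pool 2 or pool 3, Prss16 was not called either (5.55 and 5.44, adjusted p = 0.112 and 0.0834). With the tuft-marker cells left out of all pools, edgeR called Psmb11 (6.25, adjusted p = 0.0498) and not Prss16 (4.77, adjusted p = 0.0746).

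In the newborn, 5 of the genes were called higher in cTEC than in mTEClo. The edgeR log2 differences were 2.07 ± 0.23 for Psmb11 (SE, adjusted p = 0.000948), 1.65 ± 0.22 for Prss16 (adjusted p = 0.00229), 1.45 ± 0.19 for Ctsl (adjusted p = 0.00218), 1.44 ± 0.21 for Psmb10 (adjusted p = 0.00364) and 1.09 ± 0.16 for Psmb9 (adjusted p = 0.00332). Here 2% of all genes were called higher and 1.66% lower. Psmb11 lost its edgeR call when cells with haematopoietic markers were left out (1.84, adjusted p = 0.0538), and Psmb9 fell under the 2-fold limit without plate 16 (0.97).

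The medullary sorts differed from each other at both ages. In adult WT, Ctss, with a log2 difference of 2.22 ± 0.20 (SE, edgeR adjusted p = 0.00145), and Psmb10, with 1.38 ± 0.19 (adjusted p = 0.00502), were higher in mTEChi, and Ctsl was lower with -2.24 ± 0.53 (adjusted p = 0.0297). Of all genes, 7.59% were called higher and 4.47% lower. With the age and sex of the pool as a replicate block, Ctss alone was called. Ctsl (-0.92, adjusted p = 0.191) and Psmb10 (1.45, adjusted p = 0.0832) were not. Leaving out mTEChi pool 1, 3 or 4 also removed the edgeR call of Ctsl (adjusted p 0.0718 to 0.0808). Psmb10 was not called without cells with haematopoietic markers (1.05, adjusted p = 0.0948), while Ctss was (2.03, adjusted p = 0.0196). Without tuft-marker cells all 3 were called by edgeR, with log2 differences of -2.36 for Ctsl (adjusted p = 0.0157), 1.34 for Psmb10 (adjusted p = 0.02) and 1.69 for Ctss (adjusted p = 0.0126).

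In newborn mice, mTEChi were higher than mTEClo in Ctss by 3.64 ± 0.34 on the log2 scale (SE, edgeR adjusted p = 2.29e-05) and in Psmb8 by 1.63 ± 0.13 (adjusted p = 1.24e-05). They were lower in Psmb11 (-3.62 ± 0.24, adjusted p = 4.72e-06), Prss16 (-3.15 ± 0.23, adjusted p = 6.82e-06) and Ctsl (-1.92 ± 0.19, adjusted p = 3.66e-05). Of all genes, 19.9% were called higher and 12% lower. Psmb11 and Prss16 were thus called between the medullary sorts in newborns and not in adults. When the difference between ages was itself tested in the pools, none of the 40148 genes was called (0%, with 1555 genes at an unadjusted p under 0.05). Prss16 had a log2 difference of -3.58 ± 0.96 and an unadjusted edgeR p of 0.00529, adjusted p = 1.0.

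Newborn against adult WT mTEClo was the age comparison with the largest values. In simulated counts the pool test found 12% of 4-fold changes in this comparison and 11.5% in that of mTEChi. The 5 newborn plates of 164.4 to 441.97 CPM of Psmb11 did not overlap with the 3 adult pools of 0.667 to 14.1 CPM, and the same held for Prss16, with 431.1 to 1143 against 18.9 to 54.9 CPM. By edgeR on pools, Psmb11 was higher in newborns by 5.23 ± 1.18 (SE, adjusted p = 0.196) and Prss16 by 4.31 ± 0.60 (adjusted p = 0.0695) on the log2 scale. Psmb8 had -1.28 ± 0.33 (adjusted p = 0.254) and Ctss -1.15 ± 0.30 (adjusted p = 0.254). No gene of 40148 was called (0%, with 4060 at an unadjusted p under 0.05), while DESeq2 called 1907 genes, among them these 4. Without adult pool 1 edgeR called Psmb11 (6.47, adjusted p = 0.049) and Prss16 (4.96, adjusted p = 0.0139). The summed cTEC markers were also higher in newborn mTEClo (2110 CPM, against 183.5 to 511.97 CPM in the adult pools), and the summed tuft markers were lower (373.4 against 587.3 to 5622 CPM). Without tuft-marker cells the edgeR log2 differences were 4.81 for Psmb11 (adjusted p = 0.108) and 3.41 for Prss16 (adjusted p = 0.21). The part of cTEC marker expression was not tested.

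The cTEC to mTEClo difference in newborns minus that in adults was -4.87 ± 2.06 on the log2 scale for Psmb11 (SE, unadjusted edgeR p = 0.0439) and -4.20 ± 1.05 for Prss16 (unadjusted p = 0.00354), and neither passed after adjustment (adjusted p = 1.0). No gene was called (0%, with 1167 at an unadjusted p under 0.05). For the cTEC to mTEChi difference, Psmb8 alone of the 10 had an unadjusted edgeR p under 0.05, with -1.13 ± 0.47 in newborns minus adults (p = 0.0425, adjusted p = 1.0). Here too no gene was called (0%, with 938 at an unadjusted p under 0.05).

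For mTEChi, no gene was called between newborn and adult (0% by edgeR, with 836 at an unadjusted p under 0.05, and 33 calls by DESeq2). Psmb11 was at 9.89 to 35.8 CPM on the newborn plates and 2.503 to 10.8 CPM in the adult pools, which overlap, and its log2 difference was 1.64 ± 1.11 (SE, adjusted p = 1.0). Newborn mTEChi were sorted onto the same plates as cTEC and adult mTEChi were not. The part of this in the low Psmb11 counts of newborn mTEChi was not tested.

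Newborn and adult cTEC, with 1 pool on each side, were set side by side and not tested. Psmb8 was the gene of the 10 that differed more than 2-fold, being 2.90-fold higher in the adult pool (40.0 against 13.8 CPM), where 17.4% of the 13502 genes with 5 CPM or more in either pool differed more than 2-fold. All 5 newborn plates (12.6 to 15.01 CPM) were below the adult value. The other 9 genes lay within 1.46-fold of each other, including Psmb11 (732.4 and 915.6 CPM) and Prss16 (1766 and 1859 CPM). The thymocyte marker sums given above also differed, as did Ptprc, which encodes CD45 (61.7 against 22.7 CPM). Without cells with 5 or more Ptprc reads, Psmb8 had 41.3 CPM in the adult and 13.2 CPM in the newborn pool. The summed mTEC markers were 826.7 CPM in the adult and 513.2 CPM in the newborn pool. The part of medullary cells in the Psmb8 difference was not tested.

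None of the 10 genes was called between Aire-KO and WT. Aire itself was not called in mTEChi either, although its levels given above were far apart. In simulated counts the pool test found 14.5% of 4-fold changes in this mTEChi comparison and 12% in the mTEClo one. A missing call here therefore does not show equal levels. In mTEChi, edgeR called no gene at all (0%, with 2071 at an unadjusted p under 0.05, and 722 calls by DESeq2, none of them among the 10). Ctss was higher in the Aire-KO pool (288.04 CPM) than in all 4 WT pools (195.9 to 213.6 CPM), with an edgeR adjusted p of 0.832. In mTEClo, edgeR called 0.00249% of genes, which was Aire alone. Psmb11 was at 71.6 CPM in Aire-KO mTEClo against 0.667 to 14.1 CPM in the WT pools, a log2 difference of 3.29 ± 1.15 (SE, adjusted p = 1.0). Prss16 was at 119.8 CPM against 18.9 to 54.9 CPM, a log2 difference of 1.77 ± 0.60 (adjusted p = 1.0). The summed cTEC markers were 683.5 CPM in Aire-KO mTEClo and 183.5 to 511.97 CPM in the WT pools. Tuft-marker cells were 17.5% of the Aire-KO mTEClo. Without them the edgeR log2 differences were 3.12 for Psmb11 and 1.12 for Prss16 (both adjusted p = 1.0). The part of cTEC marker expression was not tested. The difference between mTEChi and mTEClo was not called as differing between genotypes for any gene (0%, with 1501 at an unadjusted p under 0.05). The smallest unadjusted p among the 10 was that of Ctss (1.27 ± 0.39, p = 0.0101, edgeR adjusted p = 1.0).

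Single cells showed what the sums were made of. Psmb11 was at 100 CPM or more in 46 of 77 adult cTEC (59.7%, exact 95% interval 47.9 to 70.8%), with a median of 499.5 CPM and quartiles of 7.49 and 1308 CPM. In newborn cTEC it was in 92.1% of cells, with quartiles of 480.4 and 1386 CPM. Adult cTEC thus spread over low and high values, while few newborn cTEC were low. In newborn mTEClo, 54.8% of cells (45.7 to 63.8%) reached 100 CPM, with 41.4 to 76.7% over the plates. In Aire-KO mTEClo, 13.6% of cells (8.64 to 20.1%) did, with 10.96 and 16.05% on the 2 plates, against 2.24% of adult WT mTEClo (0.972 to 4.37%). These exact (Clopper-Pearson) intervals treat the cells of a group as independent and cover counting error only. In the mTEChi groups the share was 1.77% in adult WT, 2.66% in Aire-KO and 3.51% in newborns.

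**Figure D4:**
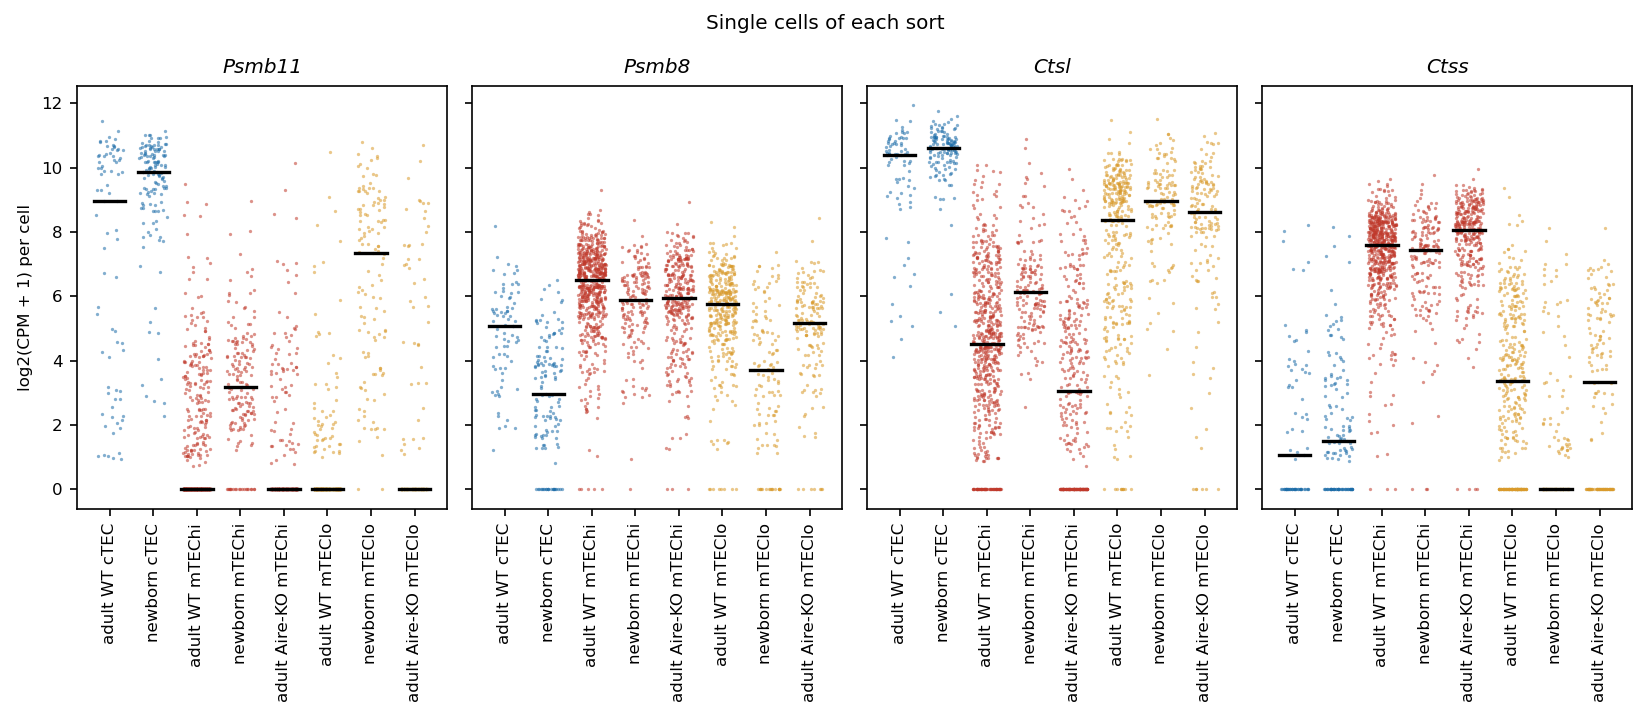
Levels of Psmb11, Psmb8, Ctsl and Ctss, as log2(CPM + 1), in single cells of each group; each point is 1 cell and the line is the median. Adult cTEC and newborn mTEClo hold cells with low and with high Psmb11, while most adult medullary cells have none.

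A read of Psmb11 was less telling than its level. With every cell thinned to 200000 reads, at least 1 read was found in 22.1% of adult WT mTEChi (30.97% before thinning) and 73.1% of newborn mTEChi (88.3%), at medians of 0 and 8.10 CPM before thinning. Median depths were 772240 and 548467 reads. Adult WT mTEClo had a read in 10.4% of thinned cells and Aire-KO mTEClo in 24.03%. Ctss had at least 1 read in 99.5% of adult WT mTEChi (median 193.2 CPM) and in 51.9% of adult cTEC, where the median was 1.08 CPM.

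The use of β5 genes also differed among the cells of the cTEC sorts. Adult cTEC were 1 pool on 1 plate with mTEC markers at 826.7 CPM, against 513.2 CPM in newborn cTEC. Whether the cells with low Psmb11 were of other types was not tested. Psmb11 made up over 50% of the length-corrected β5 reads in 61.04% of adult and 90.6% of newborn cTEC, and Psmb8 did so in 27.3 and 2.88%. In newborn mTEClo Psmb11 did so in 55.6% of cells and in Aire-KO mTEClo in 13.7%. The mean over adult cTEC was 55.5% Psmb11, below the 83.8% of the summed reads, since cells with high Psmb11 weigh more in a sum.

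**Figure D5:**
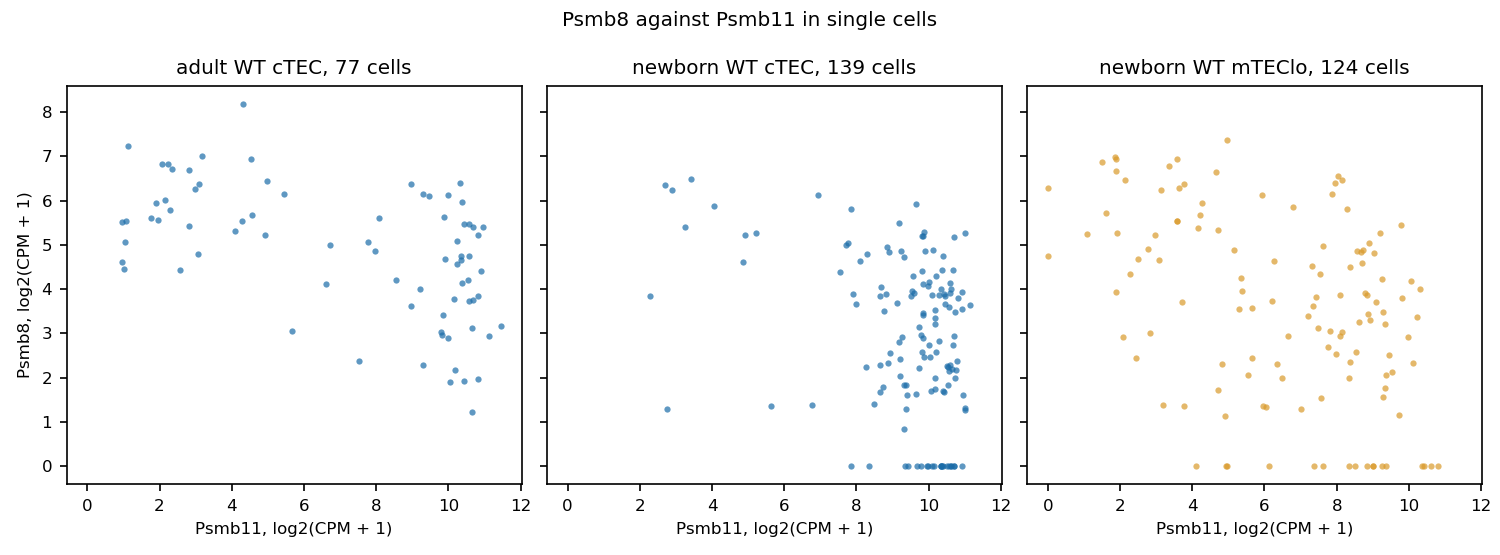
Psmb8 (vertical) against Psmb11 (horizontal), both as log2(CPM + 1), in single adult WT cTEC, newborn cTEC and newborn mTEClo; each point is 1 cell. Adult cTEC and newborn mTEClo range from cells with high Psmb11 and low Psmb8 to cells with the reverse.

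In newborn mTEClo, the Spearman correlation over the cells of the group was 0.85 between Psmb11 and Prss16, 0.81 between Psmb11 and Ctsl, -0.42 between Psmb11 and Psmb8, and -0.38 between Psmb11 and Ctss. In the same order these values were 0.82, 0.72, -0.51 and -0.12 over adult cTEC and 0.77, 0.64, -0.29 and -0.28 over newborn cTEC. Psmb8 and Psmb9 correlated at 0.55 over the 620 adult WT mTEChi, 0.55 over the newborn mTEChi and 0.53 over the Aire-KO mTEChi. The value for this pair was 0.41 in adult WT mTEClo, 0.41 in Aire-KO mTEClo, 0.20 in newborn mTEClo, -0.28 in adult cTEC and -0.16 in newborn cTEC. These cells share plates and vary in depth, and the values are descriptions.

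Across the 8 group means of log2(CPM + 1), 11310 protein-coding genes with at least 20 CPM in 1 group were ranked by Pearson's r with each gene. Closest to Psmb11 were Nbl1 (0.992), Prss16 (0.987) and Dock8 (0.987), and closest to Prss16 were Dock8 (0.993), Dtnbp1 (0.988) and Psmb11. Ctsl was most like Cttn (0.993), Gmpr (0.991) and Fat4 (0.988). Ctss was most like Rbpj, Mxd1 and Adamts13 (each 0.996), and Psmb8 was most like Gprin3 (0.994), Ndufaf3 (0.989) and Cisd1 (0.983).

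Calls among the genes for the rest of the proteasome are set beside the shares of all genes called. In cTEC against mTEChi, 1.7% of all genes were called higher and 1.15% lower in adults, and 13.3 and 23.8% in newborns. In mTEChi against mTEClo the shares were 7.59 and 4.47% in adults, and 19.9 and 12% in newborns. Most genes were thus not called in any of these. None of the 7 α-ring genes was called in any comparison. Of the 4 noncatalytic β genes, Psmb4 was higher in cTEC than in mTEChi, with log2 differences of 1.21 ± 0.22 in adults and 1.01 ± 0.08 in newborns (SE, edgeR adjusted p = 0.026 and 7.19e-06). Of the 18 genes of the 19S regulatory particle, which recognises ubiquitinated proteins, only Psmd7 was called, in newborns (1.17). Among 9 activators and assembly factors, Psme1 and Psme2, which encode the interferon-γ-inducible 11S activator PA28, were lower in cTEC than in mTEChi. Their log2 differences were -1.996 and -1.51 in adults (edgeR adjusted p = 0.0147 and 0.0433) and -2.32 and -1.28 in newborns (adjusted p = 1.73e-06 and 4.72e-06). No other member of that list was called in these comparisons. Psme2 was also higher in mTEChi than in mTEClo, with log2 differences of 1.34 in adults and 1.53 in newborns, as was Psme1 in newborns (1.77). For cTEC against mTEChi, median log2 differences over the α ring were 0.38 in adults and 0.40 in newborns. The median over all genes in that comparison was -0.49 in adults and -0.06 in newborns.

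Other lysosomal proteases and their inhibitors made up a list of 16 genes. In adult cTEC, 1 was called higher than in mTEChi and 2 lower by edgeR, where 1.7 and 1.15% of all genes were: Ctsd was higher (1.62, adjusted p = 0.0399), and Ctsz (-2.98, adjusted p = 0.0105) and Ifi30, a thiol reductase of antigen processing, (-1.33, adjusted p = 0.039) were lower. In newborns, 2 were higher and 8 lower, led by Ctse (-6.44), Ctsh (-4.41), Ctsz (-3.74) and Ctsk (-3.43), beside 13.3% of all genes called higher and 23.8% lower. The median log2 difference over the 16 was -0.51 in adults and -1.13 in newborns. In mTEChi against mTEClo, 5 were higher in adults (among them Ctse, 7.35, and Ctsh, 2.05) and 8 in newborns, where 7.59 and 19.9% of all genes were, and none was lower at either age.

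Of 9 genes for loading of MHC class I, none was called between adult cTEC and mTEChi. There 1.7% of all genes were called higher and 1.15% lower, so few calls would be found in a list of this size. In newborns Nlrc5, the transactivator of MHC class I genes (-1.47), and B2m (-1.12) were lower and Erap1, which trims peptides, was higher (1.12) in cTEC. Of all genes, 23.8% were called lower and 13.3% higher in newborns, so these calls do not set the list apart. Tap1, the peptide transporter gene next to Psmb9, was not called at either age. Of 12 genes of interferon signalling, Irf7 was higher in adult cTEC than in mTEChi (1.45, edgeR adjusted p = 0.033). In newborn cTEC, 5 of the 12 were higher, where 13.3% of all genes were, including Ifit3 (2.207), Gbp2 (1.36) and Isg15 (1.09), and none was lower at either age. In adult mTEChi against mTEClo, Irf8 was higher (2.06) and Irf7 (-1.82), Stat2 (-1.70) and Ifngr1 (-1.38) were lower. Of all genes, 7.59% were called higher and 4.47% lower in this comparison. In newborns Ifngr2 was higher (1.20) and Ifit3 lower (-1.90), beside 19.9% of all genes called higher and 12% lower.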

How the data were processed

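RamDA-seq libraries of 2148 sequencing samples from 1980 cells were deposited by the authors as 1 table of raw counts with 1 column per cell; 168 cells had 2 runs. Per the labels and the study's methods, reads were trimmed to 50 bases if needed, cleaned with fastp 0.20.0, aligned with STAR 2.7.3a to mm10 with the GRCm38 Ensembl annotation, filtered at a mapping quality of 5 (SAMtools 1.9), freed of duplicates (Picard 2.21.1) and counted without strand by HTSeq 0.11.2. Cells had over 200000 reads on over 8000 genes. A second deposited table, a normalized score (GeTMM) that the authors made with edgeR, was used only for the gene lengths it implies.

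Counts were summed into 13 mouse pools and, in newborns, into 5 plates per sort. CPM are reads per 1000000 counted reads of the sum. Fits used edgeR 4.0.16 (TMM, quasi-likelihood, R 4.3.3) over all genes past its filter, with 5 residual degrees of freedom over pools and 8 over newborn plates, where the plate was a block. Where nothing says that pools or plates came from separate mice, p-values measure only the spread between them. A pool of 1 was assumed to vary like the other groups. Same-plate deviations correlated at -0.186 to 0.281 between sorts, and the labels tie the sorts to shared plates. No 2 pools were identical. The script was tested on simulated counts. Of 4-fold changes it found 4 to 61% in the comparisons of pools and 81 to 86% in those of newborn plates. DESeq2 1.42.0, limma 3.58.1 and the other alternatives are given in the closing section. Tests of differences between differences were added after values were seen. The 10 genes and all lists were chosen with earlier results of these data known. All 10 genes and the called genes with the largest change, at most 4 per list and comparison, are named.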

Additional observations from a re-analysis of the deposited data

Results flagged for a closer look

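Of 40 sets of 4 or 5 values checked for a value far from the others, 1 had one, and chance gives about 1 in 20. Ctsl stood at 1932 CPM in newborn WT cTEC plate 18, while the other 4 plates lay between 1337 and 1480 CPM. The same plate also had the highest Psmb11 (1217 CPM), Prss16 (2735 CPM) and Psmb10 (347.5 CPM) of the newborn cTEC plates.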

How the results depend on the processing

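All 36 fold changes followed kept their sign in every setting, and 16 had a call lost or gained in at least 1. Counts of called genes among the 10 changed by over 1.5 times in 4 comparisons, and the cause was not tested. Adult cTEC against mTEClo (1 by edgeR) gave 2 with DESeq2 size factors, 4 with DESeq2, 2 with no filter on low counts, 4 with limma with equal weight per cell, 4 with plates in place of pools, 0 without cells with haematopoietic markers, and 0 to 5 when an mTEClo or other pool was left out. Newborn against adult mTEClo (0) gave 4 with DESeq2, 3 with limma, 4 with plates, and 0 to 2 when a pool was left out. Calls among all 40148 genes rose as well in this comparison, from 0 by edgeR to 1907 with DESeq2 and 1129 with limma. In adult cTEC against mTEClo they rose from 23 by edgeR to 2094 with DESeq2. The added calls with these tests therefore do not set the 10 genes apart. Adult cTEC against mTEChi (5) gave 3 without cells with haematopoietic markers and 3 to 4 when a pool was left out. Adult mTEChi against mTEClo (3) gave 1 with the replicate block of age and sex, which leaves 1 residual degree of freedom. Smaller changes were from 5 to 6 with DESeq2 or plates in adult cTEC against mTEChi, from 3 to 2 with limma or without cells with haematopoietic markers in adult mTEChi against mTEClo, and from 5 to 4 without those cells or plate 16 in newborn cTEC against mTEClo. Without a replicate block the newborn counts stayed at 6, 5 and 5. Leaving out cells with 5 or more Ptprc reads, chosen after seeing the data, moved no count by more than 1.5 times. DESeq2 size factors shifted the median log2 difference of all genes by 0.13 (mTEChi against mTEClo) and -0.17 (Aire-KO against WT mTEChi).

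Shares of the β positions in cTEC moved with the weighting. As a mean over cells, Psmb8 was 24.6% in adult and 4.76% in newborn cTEC, Psmb11 55.5 and 79.5%, Psmb9 63.7% in adults, and Psmb10 85.4 and 89.7%. With the gene lengths implied by the deposited score, Psmb8 was 7.88 and 2.29% and Psmb11 82.5% in adults. Those lengths differed from the exon lengths only for Psmb8 (2736 against 3381 bases) and Psmb9 (3659 against 3660). The lengths of the other genes were therefore not varied. Without cells with haematopoietic markers, Psmb9 was 67.3 and 59.7% and Psmb10 90.4% in adults.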
